A study of Mus musculus with 6 samples.

Results

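Genomic imprinting is the expression of a gene from one parental copy, set by DNA methylation that is laid down in the germ line at control regions and kept after fertilisation. Imprinted genes lie in clusters in which paternally and maternally expressed genes share such a region, and many of them act on fetal growth and on the differentiation of mesenchymal cells. Described here are 10 of them that lie outside the Igf2, H19 and Cdkn1c clusters of distal chromosome 7. They were taken by gene name, under a rule that uses no measured value, but the list was chosen with earlier results of these data known. On chromosome 12 these were Dlk1, which encodes a transmembrane protein related to the Notch ligands, and the long noncoding RNAs Meg3 and Rian. The transcription factor genes were Peg3 on chromosome 7 and Plagl1 on chromosome 10. The signalling genes were Grb10 on chromosome 11, whose protein binds the insulin and IGF receptors and restrains them, and Gnas on chromosome 2, which encodes the stimulatory G protein alpha subunit. The others were Mest on chromosome 6, Ndn on chromosome 7 and Nnat on chromosome 2. All 10 of the 10 genes were found among the 25793 genes of the tables and passed the level filter of at least 1 CPM (a count scaled to the library's size) in at least 1 library.

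RNA was sequenced from primary mouse embryonic fibroblasts (MEFs), cells grown out of E13.5 embryos and cultured in medium with 10% serum. There was 1 library for each of 6 genotypes. The mutants were a heterozygous and a homozygous knockout of Sptbn1 (β2SP+/- and β2SP-/-), a heterozygous and a homozygous knockout of Smad3 (SMAD3+/- and SMAD3-/-) and a double heterozygote (β2SP+/- with SMAD3+/-), and they were set against wild type (WT). Sptbn1 encodes β2-spectrin, an adaptor for the TGF-β signal transducer Smad3, and both knockouts were germline alleles from intercrosses of heterozygous mice. The labels do not say how many embryos a library holds, and they give no allele design, strain or sex. The parent from which a mutant allele came, and the parental copy from which any read came, cannot be told from these counts.

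The tables held 6856680 to 31125055 counts on genes per library. Of the uniquely placed reads, 80.1 and 81.2% lay on genes in the libraries labelled SMAD3-/- and double heterozygous, against 40.9 to 43.3% in the other 4, WT included, so a difference between these 2 libraries and WT cannot be told apart from whatever separates the 2 sets. Sptbn1, listed as Spnb2, stood at 75.8 and 54.5% of WT in the β2SP+/- and β2SP-/- libraries and at 47.2% in the double heterozygous one. In the libraries labelled SMAD3+/- and SMAD3-/-, whose labels name no mutant Sptbn1 allele, it stood at 109 and 69.4%, so its level did not follow the Sptbn1 labels in every library. Smad3 went against its labels, at 148, 192 and 367% of WT in the libraries labelled SMAD3+/-, SMAD3-/- and double heterozygous. Those libraries are therefore called by their labels throughout. Other RNAs also set the libraries apart: the ribosomal Rn18s was at 0.519 and 2.28% of WT in the libraries labelled SMAD3-/- and double heterozygous and the nuclear noncoding RNA Malat1 at 11.2 and 0.839%. Between those libraries, Rn7sk was at 4048 CPM in that labelled SMAD3-/- and 0.590 CPM in the double heterozygous one, and Rmrp at 2420 and 0.248 CPM, against 23.9 and 12.4 CPM in WT. The part of these differences in the results was not tested. The library labelled SMAD3+/- held 2768 CPM of Xist, an X-linked RNA of female cells, against at most 16.5 CPM in any other, and at most 0.391 CPM of each of 4 Y-linked genes, against at least 34.1 CPM in the others, so a difference of embryo sex and this label cannot be told apart. Fibroblast markers summed to 14770 CPM in the library labelled SMAD3-/-, where 8 of 10 were lower and 1 higher than in WT, against 25840 to 44330 CPM in the other 5, and none was at 0.

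Before the levels, the start regions of 5 of the genes are shown. RefSeq promoter windows (GRCm38.p6, 250 bases before to 50 bases after each annotated gene start) were found for all 10 genes, 17 windows in all. The 3 genes of chromosome 12, all read on the plus strand, are shown because their levels parted in the mutants, and the windows of Peg3 and Plagl1 because both were lower in the libraries labelled SMAD3+/- and SMAD3-/-. The windows are chr12:109452573-109452872 for Dlk1, chr12:109540746-109541045 for the first Meg3 start, chr12:109603695-109603994 for Rian, chr7:6730370-6730669 on the minus strand for Peg3 and chr10:13090582-13090881 on the plus strand for Plagl1. Capitals mark matches on either strand to TGCCGC, the motif of the imprint-protecting zinc-finger protein ZFP57, to GGGGCCCC, a motif of PLAGL1, to GTCTAGAC, the SMAD palindrome, and to GCCGCCAT, a motif of YY1.
Dlk1: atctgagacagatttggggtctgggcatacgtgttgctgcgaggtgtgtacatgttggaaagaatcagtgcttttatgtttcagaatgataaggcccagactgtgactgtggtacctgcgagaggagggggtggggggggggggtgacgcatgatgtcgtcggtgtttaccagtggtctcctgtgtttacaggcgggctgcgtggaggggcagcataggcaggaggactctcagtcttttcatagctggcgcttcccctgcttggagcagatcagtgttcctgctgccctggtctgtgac
Meg3: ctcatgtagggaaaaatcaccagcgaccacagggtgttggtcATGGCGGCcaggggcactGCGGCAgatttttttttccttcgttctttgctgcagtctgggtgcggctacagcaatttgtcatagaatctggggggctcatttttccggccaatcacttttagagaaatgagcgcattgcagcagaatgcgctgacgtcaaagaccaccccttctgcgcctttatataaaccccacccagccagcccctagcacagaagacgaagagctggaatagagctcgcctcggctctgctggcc
Rian: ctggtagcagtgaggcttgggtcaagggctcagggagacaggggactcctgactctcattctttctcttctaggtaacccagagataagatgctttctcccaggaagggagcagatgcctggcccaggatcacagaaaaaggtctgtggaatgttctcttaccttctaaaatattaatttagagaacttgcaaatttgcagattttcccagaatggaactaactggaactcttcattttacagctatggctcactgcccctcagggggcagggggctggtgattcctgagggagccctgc
Peg3: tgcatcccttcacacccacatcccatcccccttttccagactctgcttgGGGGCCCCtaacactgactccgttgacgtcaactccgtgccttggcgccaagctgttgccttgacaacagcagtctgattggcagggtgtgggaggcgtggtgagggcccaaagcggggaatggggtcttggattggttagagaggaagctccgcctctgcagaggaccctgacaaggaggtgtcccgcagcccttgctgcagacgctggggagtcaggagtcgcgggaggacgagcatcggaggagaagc
Plagl1: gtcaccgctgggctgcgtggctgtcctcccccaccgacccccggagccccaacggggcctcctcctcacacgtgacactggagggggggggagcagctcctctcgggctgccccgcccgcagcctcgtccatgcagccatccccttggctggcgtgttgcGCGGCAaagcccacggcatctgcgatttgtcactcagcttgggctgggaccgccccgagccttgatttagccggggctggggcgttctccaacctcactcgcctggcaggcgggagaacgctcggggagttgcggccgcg
The Meg3 window held the YY1 motif 208 bases and the ZFP57 motif 190 bases before the start, both on the other strand and without overlap between them. The Peg3 window held the PLAGL1 motif 201 bases before the start, and the Plagl1 window held the ZFP57 motif 90 bases before it, on the other strand. Neither the Dlk1 nor the Rian window held any of the 4. Over the 17 windows TGCCGC was found in 6, those of Meg3, Mest, Plagl1, Grb10 and Nnat, with 2 overlapping Mest windows that start 3 bases apart and hold the same sites, against 11.6% of the 32851 windows in the table. GGGGCCCC was found in 1.08% of all windows, GCCGCCAT in 2.24% and GTCTAGAC in 0.213%, and the last in none of the 17. The windows of the 10 genes had a median of 16 CpG dinucleotides, against 7 over all windows, of which 33.0% had at least 16. The Rian window had 0 CpG, the Dlk1 window 9, the Meg3 and Peg3 windows 13 each and the Plagl1 window 26. A second Meg3 start had a window with 1 CpG and none of the 4 motifs. These matches describe letters in a window and say nothing of binding.

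Levels are given in CPM of library sizes scaled by TMM, and are compared between libraries for a gene and never between genes, since they are not per length. In a pair of libraries a gene was called higher or lower if all of the 95% interval of its ratio, which covers counting error only, was beyond 1.5-fold. With 1 library per genotype such a call describes the pair of libraries, has no replicate check and carries no p-value. In bulk RNA fewer cells of a type and less RNA per cell cannot be told apart. Summed over the 10 genes the level was 4334 and 4074 CPM in the β2SP+/- and β2SP-/- libraries, 3234, 3970 and 3760 CPM in those labelled SMAD3+/-, SMAD3-/- and double heterozygous, and 3650 CPM in WT.

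**Figure D1:**
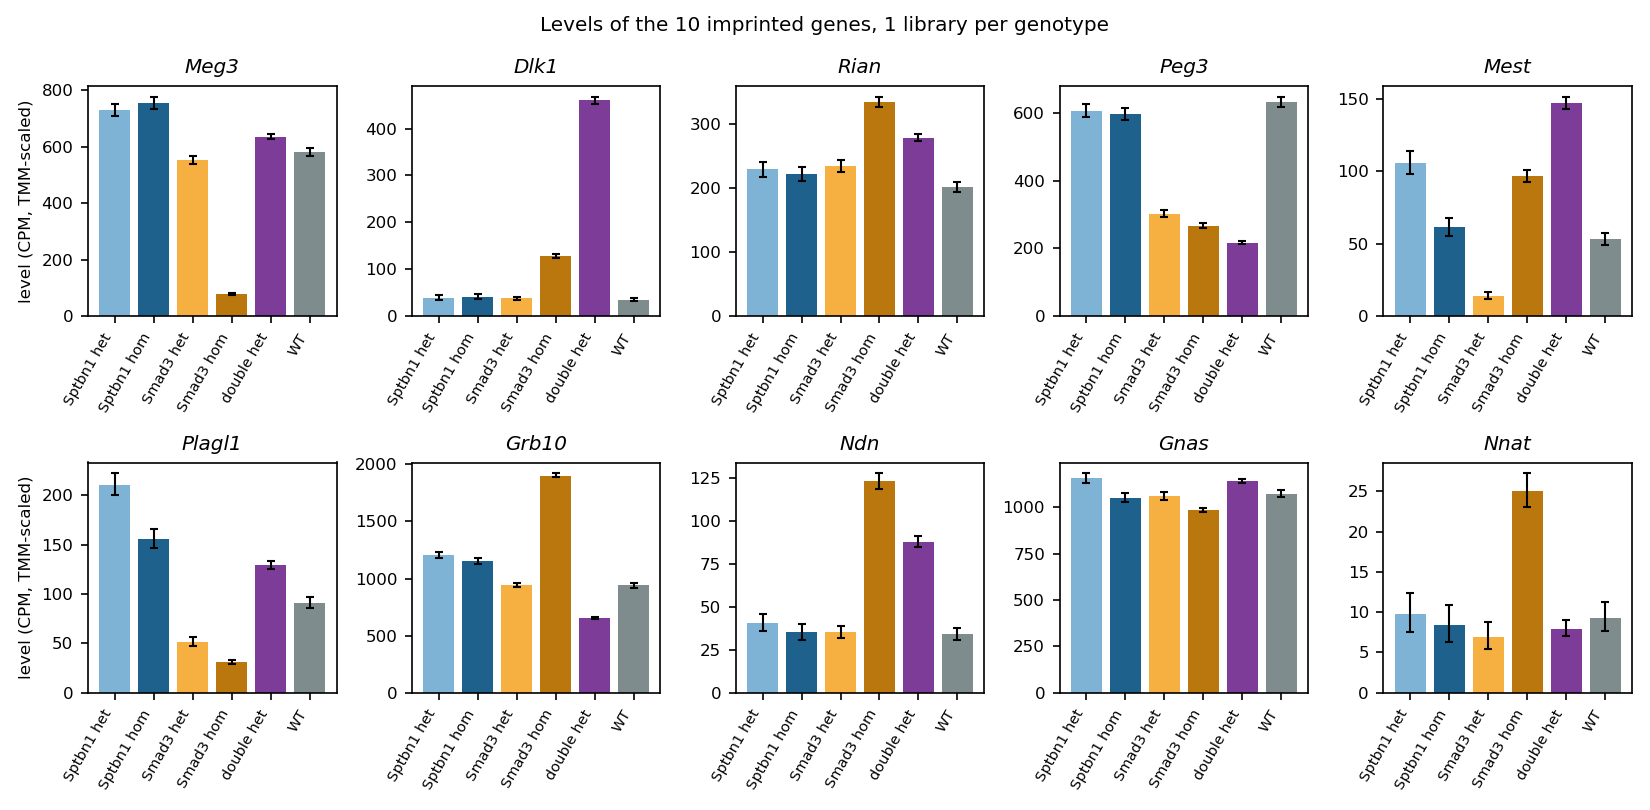
Level of each of the 10 genes (CPM on TMM-scaled library sizes) in the 6 libraries, 1 per genotype, with WT at the right of each panel. Sptbn1 het and hom are β2SP+/- and β2SP-/-, and Smad3 het and hom the libraries labelled SMAD3+/- and SMAD3-/-. Bars start at 0 and lines are exact 95% counting intervals. Meg3 is lowest in the library labelled SMAD3-/- at 77.5 CPM, Dlk1 is highest in the double heterozygous one at 460 CPM, and Gnas is nearly level throughout.

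Of the chromosome 12 genes, Dlk1 and Rian were higher than in WT and Meg3 was lower in the library labelled SMAD3-/-. In the double heterozygous one Dlk1 was higher, and Meg3 and Rian were within 1.5-fold of WT. Dlk1, known as a brake on fat cell differentiation, was at 39.5 CPM in the β2SP+/- library, 41.7 CPM in the β2SP-/- library, 38.0 CPM in the library labelled SMAD3+/-, 129 CPM in that labelled SMAD3-/-, 460 CPM in the double heterozygous one and 35.2 CPM in WT. The last 2 mutant libraries stood above the rest, and the intervals of neighbouring libraries among the other 4 overlapped. Against WT, Dlk1 was 3.67-fold higher in the library labelled SMAD3-/- (95% counting interval 3.30 to 4.08) and 13.1-fold higher in the double heterozygous one (11.8 to 14.5). Meg3, transcribed from the other parental copy than Dlk1, was at 729.7 and 754 CPM in the β2SP+/- and β2SP-/- libraries, at 552, 77.5 and 636 CPM in those labelled SMAD3+/-, SMAD3-/- and double heterozygous, and at 581 CPM in WT. It was 7.51-fold lower than in WT in the library labelled SMAD3-/- (7.12 to 7.91) and within 1.5-fold of WT in the other 4, which makes 1 library carry its whole range. Rian, the host RNA of many C/D box small nucleolar RNAs, was at 229 and 222 CPM in the β2SP+/- and β2SP-/- libraries, at 233, 334 and 278 CPM in those labelled SMAD3+/-, SMAD3-/- and double heterozygous, and at 201 CPM in WT. Rian was highest where Meg3 was lowest, 1.66-fold above WT (1.58 to 1.74), although both are known as maternally expressed RNAs of the same strand.

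Ratios of counts within a library do not depend on the scaling between libraries. Dlk1 over Meg3 was 1.67 in the library labelled SMAD3-/- (1.57 to 1.77) and 0.723 in the double heterozygous one (0.708 to 0.739), against 0.0605 in WT (0.0545 to 0.0670). In the β2SP+/- and β2SP-/- libraries and that labelled SMAD3+/- it was 0.0541, 0.0553 and 0.0688, with intervals that overlapped that of WT. The ratio was higher in both, with less Meg3 and more Dlk1 than in WT in the library labelled SMAD3-/-, and with more Dlk1 at a Meg3 level within 1.5-fold of WT in the double heterozygous one. Rian over Meg3 was 4.31 in the library labelled SMAD3-/- (4.10 to 4.54), 0.438 in the double heterozygous one (0.427 to 0.449) and 0.423 in that labelled SMAD3+/- (0.403 to 0.444), against 0.346 in WT (0.330 to 0.363). Dlk1 over Rian was 1.65 in the double heterozygous library (1.61 to 1.70) and 0.386 in that labelled SMAD3-/- (0.370 to 0.403), against 0.175 in WT (0.157 to 0.195). Reads that fitted several genes made up 0.0251% of all records in the library labelled SMAD3-/- and 0.827% in the double heterozygous one, against 0.363 to 0.413% in the other 4, and the part of this difference in the counts of overlapping transcripts was not tested.

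**Figure D2:**
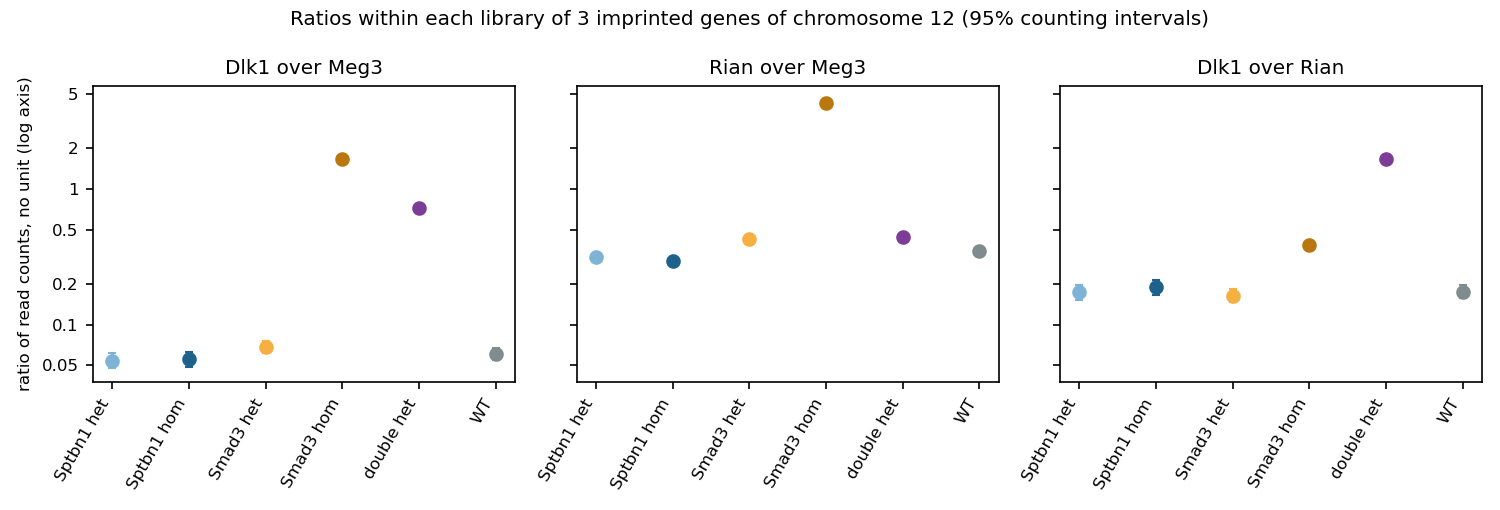
Ratio of read counts between 2 of the 3 chromosome 12 genes within each library, on a log axis shared by the panels, with exact 95% counting intervals. Dlk1 over Meg3 stands at 1.67 in the library labelled SMAD3-/- and 0.723 in the double heterozygous one, against 0.0605 in WT, and Rian over Meg3 stands apart at 4.31 in the library labelled SMAD3-/-.

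Other transcripts of this cluster did not share 1 pattern. Rtl1, a paternally expressed retrotransposon-derived gene between Meg3 and Rian, was at 47.3 and 46.3 CPM in the β2SP+/- and β2SP-/- libraries, at 34.0, 0.346 and 1.34 CPM in those labelled SMAD3+/-, SMAD3-/- and double heterozygous, and at 37.3 CPM in WT. It was 107.8-fold lower than in WT in the library labelled SMAD3-/- (54.2 to 251) and 28.0-fold lower in the double heterozygous one (20.4 to 39.2), so Dlk1 and Rtl1, both known as paternally expressed, differed from WT in opposite directions there. RefSeq's record of Rtl1 overlaps those of Meg3 and Rian, and without a stated strand setting its counts are uncertain. Mirg, a maternally expressed microRNA host, was at 14.4 and 16.5 CPM in the β2SP+/- and β2SP-/- libraries, at 11.04, 11.99 and 12.1 CPM in those labelled SMAD3+/-, SMAD3-/- and double heterozygous, and at 11.1 CPM in WT. Between Rian and Mirg on the same strand, the noncoding transcript B830012L14Rik had 34 counts in the library labelled SMAD3-/-, 2 in the double heterozygous one and 966 to 1270 in the other 3 mutants, against 1404 in WT. It was singled out after its values were seen. Of 49 listed small RNA and related transcripts of the cluster, 12 were above 0 in any library. A kit for long RNA gives no view of mature microRNAs.

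The transcription factor genes were both lower in the libraries labelled SMAD3+/- and SMAD3-/-. Peg3, a paternally expressed zinc-finger gene, was at 607 and 597 CPM in the β2SP+/- and β2SP-/- libraries, at 303, 268 and 217 CPM in those labelled SMAD3+/-, SMAD3-/- and double heterozygous, and at 632 CPM in WT. All 3 libraries with a Smad3 label stood below the 3 without one. Peg3 was 2.09-fold lower than in WT in the library labelled SMAD3+/- (2.001 to 2.18), 2.36-fold lower in that labelled SMAD3-/- (2.28 to 2.44) and 2.91-fold lower in the double heterozygous one (2.81 to 3.01). Its neighbour Zim1 was 3.35-fold lower in the library labelled SMAD3+/- (4.59 against 15.4 CPM in WT) and 3.91-fold lower in that labelled SMAD3-/- (3.94 CPM), and at 9.22 CPM in the double heterozygous one it was not called. Plagl1, also paternally expressed and known as an inhibitor of cell growth, was at 211 and 156 CPM in the β2SP+/- and β2SP-/- libraries, at 51.7, 31.1 and 129 CPM in those labelled SMAD3+/-, SMAD3-/- and double heterozygous, and at 91.2 CPM in WT. Every neighbouring pair of libraries in its order of level differed beyond counting error. Plagl1 was 2.31-fold higher than in WT in the β2SP+/- library (2.13 to 2.51) and 1.71-fold higher in the β2SP-/- library (1.56 to 1.86), and 1.76-fold lower in the library labelled SMAD3+/- (1.59 to 1.96) and 2.93-fold lower in that labelled SMAD3-/- (2.66 to 3.23). In the double heterozygous library it was 1.42-fold higher (1.32 to 1.52) and not called.

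Of the signalling genes Grb10 differed and Gnas did not pass the rule in any of the 9 pairs. Grb10, maternally expressed in most tissues, was at 1207 and 1150 CPM in the β2SP+/- and β2SP-/- libraries, at 941, 1902 and 658 CPM in those labelled SMAD3+/-, SMAD3-/- and double heterozygous, and at 939 CPM in WT. It was 2.02-fold higher than in WT in the library labelled SMAD3-/- (1.98 to 2.07) and 1.43-fold lower in the double heterozygous one (1.39 to 1.46) and not called there, so these 2 libraries lay on opposite sides of WT and 2.89-fold apart (2.84 to 2.94). Gnas was at 1155 and 1050 CPM in the β2SP+/- and β2SP-/- libraries, at 1059, 984 and 1139 CPM in those labelled SMAD3+/-, SMAD3-/- and double heterozygous, and at 1073 CPM in WT. Its highest library was 1.17-fold above its lowest (1.14 to 1.20). Nespas, an antisense transcript that overlaps Gnas in GENCODE, had 6 counts or 0.186 CPM in the double heterozygous library, against 5.19 CPM in WT, and was 27.9-fold lower (12.1 to 79.0), while it was at 3.12 to 5.83 CPM in the other 4 mutant libraries. Without a stated strand setting, reads from the 2 cannot be told apart where they overlap.

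Mest, a paternally expressed gene of the alpha/beta hydrolase fold and a fetal mesoderm transcript, had a range of 10.5-fold between its highest and its lowest library, second to that of Dlk1. It was at 106 and 61.5 CPM in the β2SP+/- and β2SP-/- libraries, at 14.1, 97.0 and 147 CPM in those labelled SMAD3+/-, SMAD3-/- and double heterozygous, and at 53.2 CPM in WT. Against WT it was 1.99-fold higher in the β2SP+/- library (1.78 to 2.22), 3.78-fold lower in that labelled SMAD3+/- (3.15 to 4.57), 1.82-fold higher in that labelled SMAD3-/- (1.67 to 2.0) and 2.77-fold higher in the double heterozygous one (2.54 to 3.02). The 2 Smad3 labels thus lay on opposite sides of WT. Mest over its neighbour Copg2, whose transcript is read toward it, was 0.571 in the library labelled SMAD3+/- (0.462 to 0.704), 2.07 in that labelled SMAD3-/- (1.93 to 2.23) and 4.30 in the double heterozygous one (4.02 to 4.59), against 2.63 in WT (2.25 to 3.08). Copg2 itself was 2.31-fold higher in the library labelled SMAD3-/- (46.8 against 20.2 CPM in WT).

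Ndn and Nnat were higher in the library labelled SMAD3-/-. Ndn, a paternally expressed member of the MAGE family, was at 40.8 and 35.4 CPM in the β2SP+/- and β2SP-/- libraries, at 35.3, 123 and 87.7 CPM in those labelled SMAD3+/-, SMAD3-/- and double heterozygous, and at 34.0 CPM in WT. It was 3.61-fold higher than in WT in the library labelled SMAD3-/- (3.25 to 4.03) and 2.58-fold higher in the double heterozygous one (2.32 to 2.88), and neighbours among the other 4 overlapped. Peg12, a paternally expressed gene of the same chromosome 7 region, was 12.3-fold higher in the library labelled SMAD3-/- (33.0 against 2.69 CPM in WT) and 2.72-fold higher in the double heterozygous one (7.30 CPM). Snrpn and Snurf, which share a locus there, were listed at 0 in all 6 libraries. Reads that fitted several genes were counted apart, so these 0 counts do not show whether the locus was silent. Nnat, a paternally expressed small membrane protein gene within an intron of Blcap, was at 9.72 and 8.35 CPM in the β2SP+/- and β2SP-/- libraries, at 6.94, 25.1 and 7.95 CPM in those labelled SMAD3+/-, SMAD3-/- and double heterozygous, and at 9.31 CPM in WT. Its counts ran from 55 to 579 and it was the least precise of the 10. Nnat was 2.69-fold higher than in WT in the library labelled SMAD3-/- (2.18 to 3.35), and neighbours among the other 5 overlapped. Nnat over Blcap was 0.556 in that library (0.502 to 0.616) and 0.141 in the double heterozygous one (0.124 to 0.161), against 0.260 in WT (0.207 to 0.323).

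**Figure D3:**
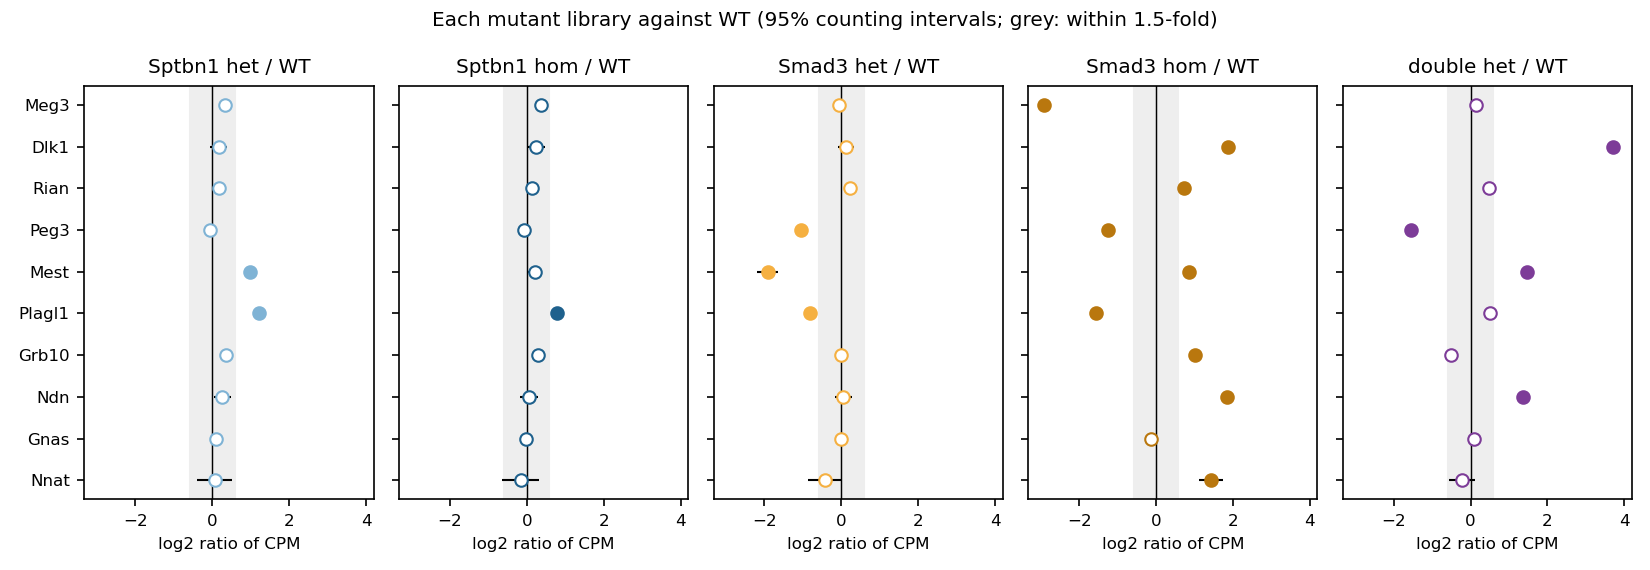
Log2 ratio of CPM in each mutant library over WT for the 10 genes, with 95% counting intervals; filled points are those whose whole interval lies beyond 1.5-fold, and the grey band is within 1.5-fold. Filled points are few in the first 3 panels and include all genes but Gnas in the panel of the library labelled SMAD3-/-.

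Counted by comparison, the Sptbn1 mutants held 2 and 1 calls against WT among the 10 genes. These are larger shares than over all genes, and rest on 1 or 2 genes. In the β2SP+/- library 2 of the 10, Mest and Plagl1, were higher than in WT and 0 lower, against 0.675% higher and 1.17% lower over the 14824 genes tested. The median log2 ratio of the 10 was 0.23, against 0.0006 over all genes. In the β2SP-/- library 1 gene, Plagl1, was higher and 0 lower, against 0.661 and 0.411% over all genes, with a median of 0.17 against 0.0039. Set against the β2SP+/- library, the β2SP-/- library had 1 of the 10 lower, Mest at 1.72-fold, and 0 higher, against 0.385% lower and 0.924% higher over all genes. Plagl1 was thus above WT in both the β2SP+/- and the β2SP-/- library, and higher in the first. Sptbn1 itself was at 75.8 and 54.5% of WT in these libraries, so their labels are not a measured dose. These pairs share the WT or the β2SP+/- library, and all 3 libraries came from the set in which fewer of the reads lay on genes. With the intervals widened by the spread between all 6 libraries, which includes the other set, none of these calls remained. Widened by the dispersion within the 4 libraries of lower share, Plagl1 in the β2SP+/- library against WT was the only one that remained.

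In the library labelled SMAD3+/-, where Smad3 itself stood above WT, 3 of the 10 genes were lower, Peg3, Mest and Plagl1, and 0 higher. Over all genes 4.52% were lower and 1.62% higher, and the median log2 ratio of the 10 was -0.05, against 0.0009 over all genes. The 3 lower genes are all known as paternally expressed, as are Dlk1, Ndn and Nnat, which were not called. None of the 3 calls remained with the intervals widened by the spread between all 6 libraries. That spread includes the split in share of reads on genes, and both libraries of this pair were in the set of lower share. Over all genes 98 of 910 calls remained with it, against 611 with the dispersion within the 4 libraries of lower share. Epithelial markers summed to 28.7 CPM in this library against 11.4 CPM in WT, with 3 of 7 tested higher, 2 of 10 fibroblast markers and 3 of 8 neural and glial markers were lower, and their part in these differences was not tested.

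In the library labelled SMAD3-/- 6 of the 10 genes were higher than in WT and 3 lower, against 22.9% higher and 26.2% lower over all genes, with a median log2 ratio of 0.80 against -0.0012. Higher were Dlk1, Rian, Mest, Grb10, Ndn and Nnat, which hold both paternally and maternally expressed genes, as do the lower Meg3, Peg3 and Plagl1. In the double heterozygous library 3 were higher, Dlk1, Mest and Ndn, and 1 lower, Peg3, against 20.3 and 20.2% over all genes, with a median of 0.30 against 0.0070. Both comparisons use the same WT library, so genes called in both are not independent observations. With the intervals widened by the spread between libraries of all 6 genotypes, the calls against WT that remained were Meg3 in the library labelled SMAD3-/- and Dlk1 in the double heterozygous one. The 11 macrophage and leukocyte markers were all lower in the library labelled SMAD3-/- and summed to 62.0 CPM, against 2380 CPM in WT, none of them at 0, and in the double heterozygous library 5 were lower, 1 was higher and the sum was 1732 CPM. Of 7 tested skeletal muscle markers, 4 were higher and 0 lower in the library labelled SMAD3-/- (summed level 136 against 69.8 CPM in WT). Of 7 epithelial markers there, 3 were higher and 0 lower (67.4 against 11.4 CPM in WT), with a median log2 ratio of -1.38. The epithelial sum was mostly Krt18 and Krt19, at 30.6 and 30.4 CPM, while Epcam, Cdh1, Krt5 and Krt14 stood below WT and were not called. In that library 3 of 4 endothelial markers were lower, and of 8 neural and glial markers 3 were higher and 3 lower. In the double heterozygous library 6 of the 8 neural and glial markers (245 against 697 CPM in WT) and 3 of the 7 epithelial markers were lower and none of either higher. Of 5 tested adipocyte markers 2 were lower and 1 higher in the library labelled SMAD3-/-, with a median log2 ratio of 0.47, and 0 were called in the double heterozygous one. Their sum is mostly Lpl, at 10.65 CPM in the library labelled SMAD3-/- against 244.5 CPM in WT, while Pparg was at 13.4 against 1.25 CPM in WT. The part of all these markers in the results was not tested.

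Within the pair of libraries with the higher share of reads on genes, 2 of the 10 genes were higher in the library labelled SMAD3-/- than in the double heterozygous one and 3 lower, against 19.8 and 23.4% over all genes. Meg3 was 8.20-fold lower, Dlk1 3.57-fold lower and Plagl1 4.15-fold lower, while Grb10 was 2.89-fold and Nnat 3.15-fold higher. Peg3 at 1.23-fold higher and Gnas at 1.16-fold lower were not called, nor were Ndn at 1.40-fold higher, Rian at 1.20-fold higher and Mest at 1.52-fold lower. Of the genes called in this pair, Meg3, Plagl1, Grb10 and Nnat had folds at least as large against the double heterozygous library as against WT. Dlk1 in the library labelled SMAD3-/- was lower than in the double heterozygous one and higher than in WT. The pair is near in its share of reads on genes but far apart in Rn7sk, Rmrp and Malat1 (4360 CPM in the library labelled SMAD3-/- and 327 CPM in the double heterozygous one), and the part of that was not tested.

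The double heterozygous library was also set against that of each single heterozygote, which by its label lacks the second mutation and which had a lower share of reads on genes. These ratios describe pairs of libraries, and the part of the second mutation in them was not tested. Against the β2SP+/- library 2 of the 10 were higher, Dlk1 11.6-fold and Ndn 2.15-fold, and 3 lower, Peg3 2.79-fold, Grb10 1.83-fold and Plagl1 1.63-fold, against 19.6 and 19.5% over all genes. Against the library labelled SMAD3+/- 4 were higher, Dlk1 12.1-fold, Mest 10.5-fold, Plagl1 2.50-fold and Ndn 2.49-fold, and 0 lower, against 21.1 and 20.2% over all genes. The departure of the double heterozygote, its log2 level minus those of both single heterozygotes plus that of WT, went beyond 1.5-fold by more than its 95% counting error for 3 genes on the higher and 1 on the lower side, against 17.4 and 17.6% over all genes. Dlk1 stood at 460 CPM where the log2 ratios of the single heterozygotes, added, gave 42.7 CPM, a departure of 3.43 ± 0.27 on the log2 scale (± the 95% counting error). Mest departed by 2.39 ± 0.29, Ndn by 1.05 ± 0.27 and Grb10 by -0.88 ± 0.05. Plagl1, which had opposite directions in the 2 single heterozygotes, stood at 129 CPM where they gave 119 CPM, a departure of 0.11 ± 0.17. The departure has no replicate behind it, and the double heterozygous library is the only one of these 4 with the higher share of reads on genes.

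A model with mutant allele counts of Sptbn1 and Smad3 as its terms, fitted across all 6 libraries, was the one test with a spread between libraries, and it left 3 residual degrees of freedom. With edgeR's quasi-likelihood test and Benjamini-Hochberg adjustment over 14091 genes, 0.0% of genes and 0 of the 10 passed an adjusted p of 0.05 for either gene, with 24 genes for Sptbn1 and 3351 for Smad3 at an unadjusted p under 0.05. Ndn had a log2 change of 0.97 per mutant Smad3 allele (95% interval 0.33 to 1.60, unadjusted p = 0.00988, adjusted p = 0.167). Peg3 had one of -0.75 (-1.38 to -0.13, unadjusted p = 0.0252, adjusted p = 0.178) and Plagl1 one of -0.76 (-1.49 to -0.03, unadjusted p = 0.0443, adjusted p = 0.203). The value of Peg3 per Smad3 allele pointed down in 3 of 3 libraries with that label and that of Plagl1 down in 2 of 3. That of Ndn pointed up beyond counting error in 2 of 3, with the library labelled SMAD3+/- at 1.04-fold of WT (0.895 to 1.20). Dlk1 had a log2 change of 1.71 (-0.09 to 3.51) and Meg3 one of -1.04 (-2.30 to 0.22). Single libraries carried much of these values. Without the library labelled SMAD3-/- the change was -0.12 for Meg3, -1.32 for Peg3 and 2.67 for Dlk1, and for Dlk1 it was 0.90 without the double heterozygous library and 2.58 without WT. For Sptbn1 the adjusted p was 0.9997 for each of the 10. DESeq2's Wald test on the same design called 2048 genes for Smad3, among them Peg3 (-0.78, adjusted p = 0.0437) and Ndn (0.94, adjusted p = 0.0251). For Sptbn1 the Wald test called 0 genes, with 59 at an unadjusted p under 0.05. The libraries labelled SMAD3-/- and double heterozygous are those with the higher share of reads on genes. A change per Smad3 allele over all 6 libraries therefore cannot be told apart from that split. Within the libraries of lower share the change per Smad3 allele was -0.02 for Ndn and -1.06 for Peg3, carried by the library labelled SMAD3+/- alone.

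**Figure D4:**
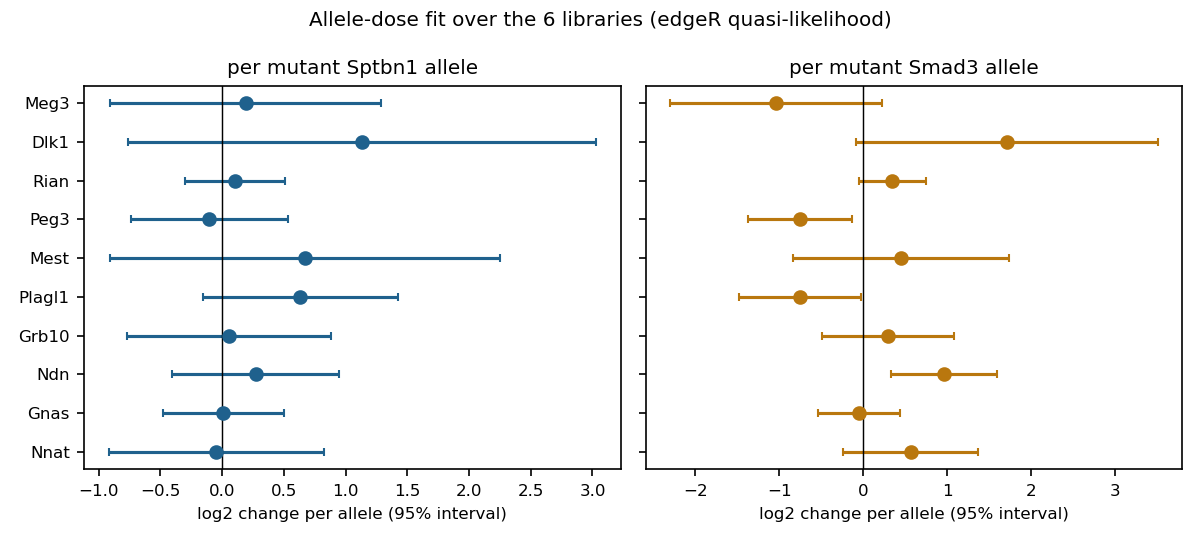
Log2 change per mutant allele of Sptbn1 (left) and Smad3 (right) for the 10 genes from the edgeR quasi-likelihood fit over 6 libraries, with 95% intervals. The intervals of Peg3, Plagl1 and Ndn exclude 0 for Smad3 before adjustment, and those of all 10 genes span 0 for Sptbn1.

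Other imprinted genes are read against the shares of all genes called, 22.9% higher and 26.2% lower in the library labelled SMAD3-/- and 20.3% higher and 20.2% lower in the double heterozygous one. Among 14 tested neighbours in the clusters of the 10 genes, 5 were higher and 2 lower in the library labelled SMAD3-/-, and 1 higher and 3 lower in the double heterozygous one, with median log2 ratios of 0.22 and 0.04. Among 29 tested imprinted genes of other regions outside distal chromosome 7, 4 were higher and 6 lower in the library labelled SMAD3-/-, with a median log2 ratio of -0.31, and 4 higher and 7 lower in the double heterozygous one, with a median of -0.15. On the higher side both counts of this second list are a smaller share than that of all genes. Slc38a4, a paternally expressed amino acid transporter gene, stood at 263 CPM under the label SMAD3-/- and at 116 CPM in the double heterozygote, against 31.9 CPM in WT, 8.26-fold and 3.63-fold higher. Airn, the paternally expressed noncoding RNA that silences Igf2r in cis, was at 2.08 and 2.58 CPM in these libraries, against 17.7 CPM in WT, 8.53-fold and 6.88-fold lower. Rasgrf1 had 0 counts in the double heterozygous library, against 11 in WT. It was at least 10.6-fold lower there by a floor of 3 counts per library, and the 95% counting interval begins at 7.24-fold. Its counts were also low in the libraries labelled SMAD3+/- and SMAD3-/-, at 2 and 1, and were 9 and 7 in the β2SP+/- and β2SP-/- ones. In the Sptbn1 mutants Tfpi2 was 3.43-fold lower in the β2SP+/- library and 2.80-fold lower in the β2SP-/- library, and it was 2.27-fold lower in that labelled SMAD3+/-. Ddc, next to Grb10, was at 2.43 CPM in the β2SP-/- library, against 0.537 CPM in WT, on 16 against 6 counts (interval 1.68 to 14.1-fold). It stood above WT in every mutant library, at 1.795 CPM in the β2SP+/- one. In those labelled SMAD3+/-, SMAD3-/- and double heterozygous it was at 1.86, 4.85 and 0.994 CPM. In the library labelled SMAD3+/- Impact was 1.89-fold higher, and Gpr1 had 0 counts against 8 in WT, at least 2.44-fold lower by the same floor, with an interval that begins at 1.56-fold. On distal chromosome 7, H19 was at 5520 and 4114 CPM in the libraries labelled SMAD3-/- and double heterozygous, against 1133 CPM in WT, and Kcnq1ot1 at 15.5 and 4.38 CPM, against 421 CPM.

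**Figure D5:**
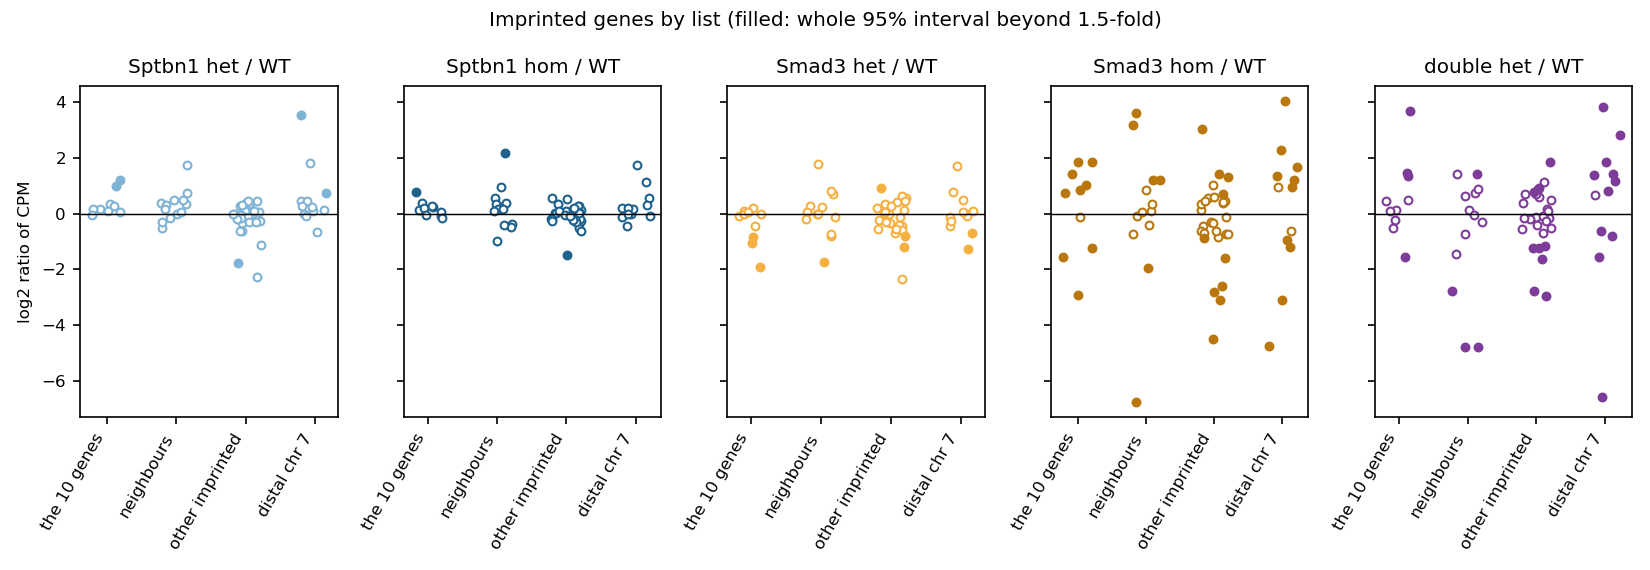
Log2 ratio of CPM in each mutant library over WT for the 10 genes, their cluster neighbours, other imprinted genes outside distal chromosome 7 and those of distal chromosome 7; each point is a gene, spread sideways for legibility, and filled points are beyond 1.5-fold with their whole 95% interval. Genes with 0 counts in either library are not drawn. In every list filled points lie on both sides of 0 in the last 2 panels.

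Genes that keep imprints and genes of the pathways in which the 10 act were read from 4 lists, again against 22.9% higher and 26.2% lower of all genes in the library labelled SMAD3-/-, 20.3% and 20.2% in the double heterozygous one, and 1.62% and 4.52% in that labelled SMAD3+/-. In the Sptbn1 mutants 1 gene of these lists was called against WT, Prkar2b of the cyclic AMP list, at 1.91-fold lower in the β2SP+/- library and 1.99-fold lower in the β2SP-/- library. Of 18 tested imprint maintenance genes 4 were higher and 3 lower in the library labelled SMAD3-/-, and 3 higher and 4 lower in the double heterozygous one. Trim28, the corepressor that ZFP57 recruits, was at 569 and 257 CPM in these libraries, against 120 CPM in WT, and Uhrf1, which brings the maintenance methyltransferase to DNA, at 181 and 39.7 CPM, against 40.5 CPM. Tet2, an enzyme that oxidises methylated cytosine, was at 65.0, 15.9 and 42.2 CPM in the libraries labelled SMAD3+/-, SMAD3-/- and double heterozygous, against 114 CPM in WT, and was called lower in all 3. Of 12 tested genes of the Notch pathway, which DLK1 touches, 5 were lower and 0 higher in the library labelled SMAD3+/-, with a median log2 ratio of -1.12, where Dlk1 itself was at 38.0 CPM, against 35.2 CPM in WT. Among these 12, none was higher and 2 were lower under the label SMAD3-/-, and 2 were higher and 3 lower in the double heterozygous library. The Notch target Heyl was at 1.17, 0.217 and 0.404 CPM in the libraries labelled SMAD3+/-, SMAD3-/- and double heterozygous, against 15.8 CPM in WT. Of 13 tested genes of the insulin and IGF receptor pathway that Grb10 restrains, 3 were higher and 3 lower in the library labelled SMAD3-/-, where Igf1 was 23.4-fold lower (10.9 against 254 CPM in WT). Of 23 tested Gs and cyclic AMP genes around Gnas, 5 were higher and 3 lower in that library, among them the G protein subunit gene Gnb2, 6.51-fold higher, while Gnas was not called. The counts of the maintenance, insulin and cyclic AMP lists in that library are near or under the shares of all genes.

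The patterns of the 10 genes over the 6 libraries were not alike. By the root mean square difference of centred log2(CPM + 1) over the 6 libraries, Rian and Gnas were the nearest pair of the 10 at 0.28, which rests on their small ranges and not on a shared direction, since their Pearson's r was -0.40. They were followed by Grb10 and Nnat at 0.31, and Meg3 was nearest to Plagl1 at 0.66. Among other genes with at least 5 CPM in a library, those nearest to Meg3 were Pcgf2 at 0.11 and Irx1 at 0.13, and those nearest to Dlk1 were Cdkn2a at 0.19 and Arl6ip5 at 0.20. Nearest to Peg3 were Crispld2 at 0.13 and Serpinb8 at 0.16, to Plagl1 Ucp2 at 0.21 and Cybrd1 at 0.21, and to Mest Ogn at 0.32 and Zcchc5 at 0.39. For Ndn they were Zfyve9 at 0.04 and Lsm14b at 0.07, for Grb10 Tmtc4 at 0.10 and Hnrnpk at 0.11, and for Nnat Fam174b at 0.06 and Rpap3 at 0.12. Rian was nearest to Gpd1l at 0.03 and Gorasp2 at 0.04, and Gnas to Dnajc7 and Pkd1, both at 0.03. Each measure rests on 6 libraries that differ in depth and in their share of reads on genes, and carries no p-value. The part of these differences in the patterns was not tested.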

How the data were processed

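Libraries were made from 1 ug of TRIZOL-extracted total RNA with an Illumina TruSeq RNA kit, per the labels' protocols. The values deposited by the authors are unscaled counts of reads, in a table for each library that holds 25793 gene symbols, 5828 of them at 0 in all 6 libraries. Each table ends in 5 summary lines, which were left out of sizes and tests. TopHat2 2.0.10, HTSeq, DESeq2, Trimmomatic and FastQC and the build mm9 are named in the submitters' processing notes. The roles of these tools, the strand setting and the annotation are not given in the sources used here.

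The 10 genes and all lists were chosen with earlier results of these data known, from general knowledge of imprinting. The genes named beyond the 10 are, for each pair, up to 4 listed imprinted genes whose interval bound lies farthest from 1-fold, and for each of the 10 the 2 genes of most similar pattern by the smallest root mean square difference (pseudocount of 1 CPM). The first rule also took Pon3, 5.51-fold lower in the library labelled SMAD3-/- than in the double heterozygous one. It took Htr2a too, 3.62-fold lower in the double heterozygous library than in that labelled SMAD3+/-. The other genes named were chosen after their values were seen. Counts were scaled with TMM (edgeR 4.0.16, R 4.3.3). For 9 pairs, ratios of the 14824 genes that reached 1 CPM in any library have exact Clopper-Pearson 95% intervals (scipy 1.17.1), which cover counting error only. Departures add 0.5 counts. Allele-dose fits used edgeR's quasi-likelihood test (limma 3.58.1) on the 14091 genes that reached 1 CPM in 2 or more libraries, and DESeq2 1.42.0 as an alternative. Both rules were also run on simulated data. Those for the allele-dose fit had a common dispersion for all genes and no difference between sets of libraries. They therefore cannot show how the fit does on these libraries. Other alternatives were DESeq2 size factors, total counts, other filters, a 2-fold rule, intervals widened by the dispersion between libraries, and fits without each library. The pairs of the double heterozygote with each single heterozygote, and the widening and fit within 4 libraries, were added after the data were seen. Promoter windows and genes' chromosomes are RefSeq's (GRCm38.p6), another build than the authors' mm9, so no coordinate was joined to the counts.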

Additional observations from a re-analysis of the deposited data

Results flagged for a closer look

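Grb10 was flagged because, by the labels, 1 mutant Sptbn1 allele went with opposite differences on the 2 backgrounds. Its log2 ratio was 0.36 in the β2SP+/- library against WT and -0.51 in the double heterozygous library against that labelled SMAD3+/-, and each 95% counting interval lay on 1 side of 0. Mest was flagged in the same way for 1 mutant Smad3 allele, at -1.92 in the library labelled SMAD3+/- against WT and 0.48 in the double heterozygous library against the β2SP+/- library. With 1 library per genotype neither difference between backgrounds was tested, and the double heterozygous library differs from the other 3 in the share of reads on genes.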

How the results depend on the processing

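Of 630 pair values recomputed, 582 kept their side of the threshold and 48 lost a call. No called value changed sign, and 3 uncalled ones did, all under total counts, each with a log2 ratio of at most 0.125 in size as reported. Of 220 allele-dose values 198 kept their direction and side, 3 gained a call and 19 changed sign, none of them past the threshold before or after. For Smad3 these were, without the library labelled SMAD3-/-, Grb10 (-0.46), Gnas (0.0052) and Nnat (-0.31), and within the 4 libraries of lower share, Mest (-2.26), Grb10 (-0.074), Ndn (-0.024) and Nnat (-0.47). For Sptbn1 they were Gnas within those 4 (-0.016), with DESeq2 size factors (-0.0035) and by the DESeq2 Wald test (-0.0057), Meg3 (-0.18), Gnas (-0.047) and Nnat (0.20) without WT, Grb10 without the β2SP-/- library (-0.21) and without that labelled SMAD3+/- (-0.021), and, without the double heterozygous library, Meg3 (-0.13), Peg3 (0.020), Gnas (-0.027) and Nnat (0.080). At the other end of their ranges over single libraries left out, these values reached 0.56 for Meg3, -0.40 for Peg3, 0.23 for Grb10, 0.12 for Gnas and -0.21 for Nnat per Sptbn1 allele, and 0.44 for Grb10, -0.12 for Gnas and 0.78 for Nnat per Smad3 allele. A 2-fold rule left calls among the 10 of 1 in the β2SP+/- library against WT, 0 in the β2SP-/- library against WT and against the β2SP+/- library, 2 in the double heterozygous against the β2SP+/- library and 2 departures. Intervals widened by the dispersion of all 6 libraries left 0 calls in the β2SP+/-, β2SP-/- and SMAD3+/- libraries against WT and in the β2SP-/- against the β2SP+/- library. They left 1 in the library labelled SMAD3-/- against WT (Meg3), 1 in the double heterozygous library against WT (Dlk1), 1 in the library labelled SMAD3-/- against the double heterozygous one (Meg3), 1 in the double heterozygous against the β2SP+/- library (Dlk1) and 2 in it against that labelled SMAD3+/- (Dlk1 and Mest). Widening by the dispersion within the 4 libraries of lower share left 1 in the β2SP+/- library against WT, 0 in the β2SP-/- library against WT and against β2SP+/-, and 3 in the double heterozygous against the β2SP+/- library. For Smad3 the DESeq2 Wald test called 2 of the 10, and the fit within those 4 libraries, with 1 residual degree of freedom and the library labelled SMAD3+/- alone as its carrier, called 1 (Peg3, -1.06, adjusted p = 0.00455) and 364 genes in all, and for Sptbn1 1 gene. The allele-dose fits without each library in turn called 0 of the 10 for either gene. The causes were not tested.

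Over all genes tested, counts of calls by the 1.5-fold rule, the 2-fold rule and the widening by all 6 libraries were 274, 99 and 20 in the β2SP+/- library, 159, 47 and 12 in the β2SP-/- library, 910, 435 and 98 in that labelled SMAD3+/-, 7277, 4799 and 1935 in that labelled SMAD3-/- and 5999, 3429 and 1081 in the double heterozygous one, each against WT. Those between mutants were 194, 63 and 13 for the 2 Sptbn1 genotypes, 6396, 3957 and 1408 for SMAD3-/- against double heterozygous, 5804, 3377 and 1135 for double heterozygous against β2SP+/- and 6121, 3599 and 1114 against SMAD3+/-. Widening by the 4 libraries gave 154, 96 and 106 for the β2SP+/- and β2SP-/- libraries against WT and for the pair of them, and a filter of 5 CPM gave 99 for the β2SP-/- library. Scaling by total counts moved the log2 ratio of the library labelled SMAD3-/- against WT by 0.15 and lost the call of Plagl1 in the double heterozygous against the β2SP+/- library. No paired analysis was possible because there is 1 library per genotype and the labels give no replicate numbers. Depth limits Nnat most, with 55 to 104 counts in 4 libraries.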
